A study of Mus musculus with 9 samples.

Results

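The genes that encode the proteasome, its assembly factors, its activators and its inhibitor were followed through 9 RNA-seq libraries of mouse hippocampus. Members were the protein-coding genes with a deposited FPKM value, a read count scaled for exon length and library size, whose symbol starts with Psm, one letter from a to g and a digit. This rule found 49 of 18409 protein-coding genes. By known role they were 7 alpha subunits and 7 constitutive beta subunits of the 20S core, 5 tissue-restricted or inducible core subunits, 6 ATPases and 11 non-ATPase subunits of the 19S cap, 7 assembly chaperones, and 5 activators and inhibitors. The remaining member, Psmc3ip, takes its symbol from a protein interaction and is known as a meiotic recombination factor, not as a subunit. Counts were high enough for testing in 47 members; the testis subunit Psma8 and the thymus subunit Psmb11 had 1 to 8 counts in each library and were not tested.

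All libraries came from female mice aged 9 months, with 3 libraries in each of 3 groups. WT vehicle mice were C57BL/6J and were given only the blank solvent, orally, on 4 occasions a week. 3xTg vehicle mice carried the APPSwe, tauP301L and mutant PS1 alleles of the 3xTg model of Alzheimer's disease and received the same solvent. 3xTg LP-10d mice carried the same alleles and were given LP-10d, a compound, orally for 1 month at a dose of 10 mg/kg, also on 4 occasions a week. The labels write the PS1 change as M146V for the first 3xTg library and raise the number by 1 in each following library, up to M151V. In the 3xTg line as it is generally described, a neuronal Thy1 promoter drives the APP and tau transgenes and the PS1 change is a knock-in. The WT strain is named and the background strain of the 3xTg mice is not given in the sources used here. Genotype and strain cannot be told apart. The labels do not say that the libraries of a group are separate animals, so a p-value here describes how these samples spread, which may be technical.

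The proteasome is the main protease for proteins tagged with ubiquitin. Its barrel-shaped 20S core has outer rings of alpha subunits that gate the entrance and inner rings of beta subunits, of which Psmb5, Psmb6 and Psmb7 cut the substrate. The 19S cap recognises, unfolds and feeds tagged proteins into the core. Under interferon, cells build the inducible catalytic subunits Psmb8, Psmb9 and Psmb10 into an immunoproteasome that is known for producing peptides for antigen presentation, and in brain these are known mainly from glia. In neurons the proteasome takes part in synaptic protein turnover, and ubiquitin-tagged aggregates are a known feature of Alzheimer's disease.

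Total counts ran from 16582086 to 19170969 per library. Library values are given as CPM, counts scaled to the effective library size, which serve to compare 1 gene between libraries. Levels between genes are given as FPKM or as CPM per kilobase of the main transcript. Hippocampal markers were present throughout, with 8 of 8 genes detected and a summed level of 590 to 1196 CPM. 3xTg vehicle replicate 2 was the lowest in that sum, and its 7 striatal markers summed to 808 CPM against 51.6 to 117 in the other libraries. Summed choroid plexus markers ran from 42.8 to 4430 CPM with no order by group. In such bulk tissue, fewer cells of a type and less RNA per cell cannot be told apart.

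Core and cap subunits were abundant and assembly factors were not. Psmc5, a cap ATPase, had the highest mean level at 89.7 FPKM, with 68.6 to 99.7 FPKM over the 9 libraries. The core subunit Psmb4 followed at 53.1 FPKM, the ATPases Psmc3 and Psmc1 at 52.5 and 51.7 FPKM, and the large cap scaffold Psmd2 at 50.4 FPKM. In the alpha ring the means ran from 11.6 FPKM for Psma3 to 44.8 FPKM for Psma6, and in the constitutive beta ring from 11.5 FPKM for Psmb7 to the 53.1 FPKM of Psmb4. Subunits that are present in equal numbers in the finished particle differed in transcript level by 3.87 times in the alpha ring and 4.62 times in the beta ring by FPKM. Per kilobase of main transcript these ratios were 4.86 and 2.58, so which ring varied more turned with the length used.

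By FPKM the ranges in the cap were wider, at 7.30 times over the ATPases and 6.49 times over the non-ATPase subunits. Per kilobase of main transcript they were 4.92 and 5.32 times, near the 4.86 times of the alpha ring. Its ATPases, which form the ring that unfolds substrates, ran from 12.3 FPKM for Psmc6 to the 89.7 FPKM of Psmc5. Its non-ATPase subunits ran from 7.76 FPKM for Psmd11, a lid subunit, to the 50.4 FPKM of Psmd2. The order of genes depends on the length used: per kilobase of main transcript, Psma7 and Psmd4, a ubiquitin receptor, stood highest among alpha and non-ATPase subunits at 77.1 and 92.9 CPM per kilobase. Psmc5 led the ATPases under either length.

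Assembly chaperones were lower. Their means ran from 0.801 FPKM for Psmg3 to 11.2 FPKM for Psmg4, which work as a pair in alpha-ring assembly, with a median of 5.96 FPKM over the 7 genes. Among the activators, Psme3, the nuclear PA28 gamma subunit, had 36.1 FPKM, Psme1 and Psme2, the PA28 alpha and beta subunits, had 12.6 and 7.31 FPKM, and Psme4, the PA200 activator, had 5.41 FPKM. Psmf1, the PI31 regulator first described as an inhibitor, had 5.01 FPKM. Psmc3ip had 1.43 FPKM.

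**Figure D1:**
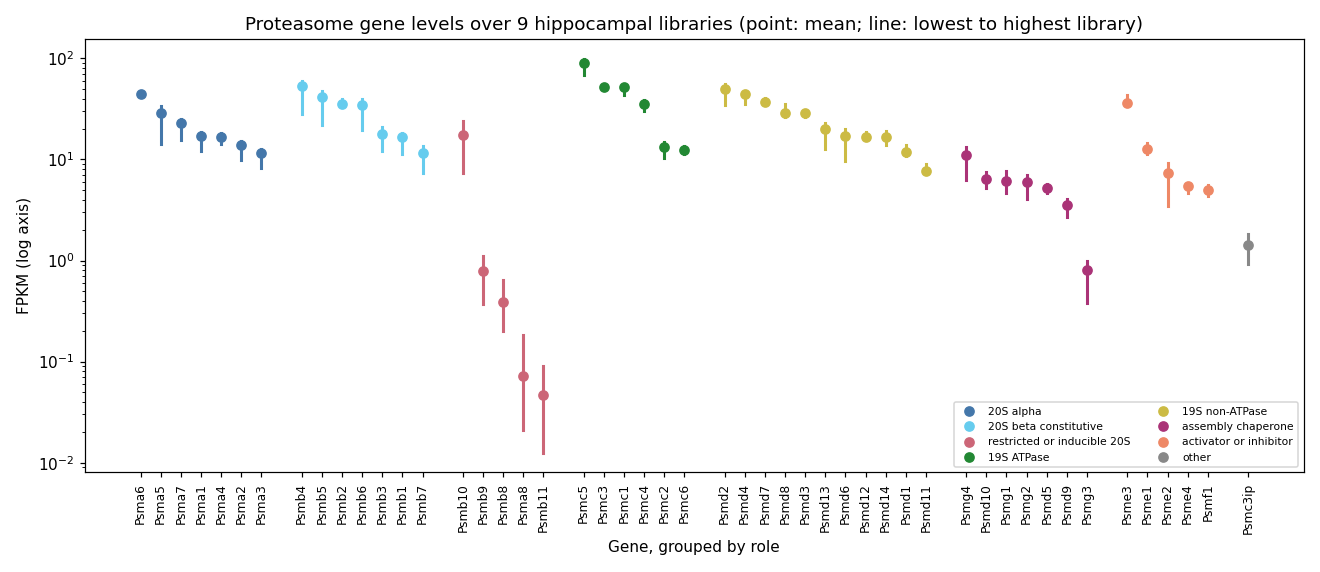
FPKM of each of the 49 genes on a log axis, grouped by role; points are means over 9 libraries and lines run from the lowest to the highest library. Core and cap subunits lie between 7.76 and 89.7 FPKM, the assembly chaperones between 0.801 and 11.2 FPKM, and Psmb8, Psmb9, Psma8 and Psmb11 below 1 FPKM.

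The 3 inducible catalytic subunits did not stand at the same level. Psmb8 had a mean of 0.393 FPKM and Psmb9 of 0.791 FPKM. Beside their constitutive counterparts these are small amounts: Psmb8 reached a median of 0.938% of Psmb5 over the 9 libraries (range 0.561% to 1.39%), and Psmb9 reached 2.16% of Psmb6 (range 1.64% to 2.99%). Psmb10 was far higher at 17.6 FPKM, a median of 154% of Psmb7 by FPKM (range 101% to 203%). The deposited FPKM of Psmb7 is divided by all of its annotated exons, 3421 bases, while its main transcript has 1160 bases; per kilobase of main transcript the median for Psmb10 was 67.8% of Psmb7. The FPKM order of Psmb10 and Psmb7 was therefore reversed by the length used, and the low ratios of Psmb8 and Psmb9 were not, at 1.95% and 2.49% per kilobase.

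Genome positions of genes are those deposited with the FPKM values, on mm10. Psmb9 (chr17:34181987-34187764, minus strand) and Psmb8 (chr17:34197721-34201454, plus strand) lie in the major histocompatibility region with 9956 bases between them, which hold Tap1, a peptide transporter of antigen presentation. Psme1 (chr14:55578123-55581529) and Psme2 (chr14:55587441-55591113) are 5911 bases apart on opposite strands. Psmb10 (chr8:105935735-105938444, minus strand) is overlapped by the noncoding gene Gm16156, which had 19 counts in all. Of the 49 members, 19 are overlapped by another listed gene, and in 8 the overlapping gene had at least 10% of the member's own counts. The sources used here do not name the strand setting of the counting. Reads in the shared bases cannot be told apart for Psmb9 and Tap1 (212 shared bases), Psmb7 and Nek6, Psme1 and Emc9 (14 shared bases), Psmd13 and Sirt3, or Psmc3ip and Mlx, whose counts were 832% of those of Psmc3ip. The same holds for Psma3 and 3110056K07Rik (11.8% of the member's counts) and for Psmc3 and Slc39a13 (25.0%). It also holds for Psma2 and AW209491 (32.3%), which lie on the same strand.

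Promoter letters are shown for motifs of factors named with proteasome genes: the antioxidant response element, bound by the Nfe2l family of stress factors, and the interferon-stimulated response element. RefSeq promoter windows of 300 bases, 250 before and 50 after the start, on GRCm38.p6 were matched for 41 members. The start is that of the RefSeq promoter entry and can differ from the deposited gene start, as in Psme1 and Psmd9. The antioxidant response core TGACNNNGC, searched on both strands, was found in 6 of 44 member windows (13.6%) and in 12.4% of all 32851 windows. In capitals are the bases that match, each with up to 10 neighbouring bases, read in the direction of the gene.
Psmb5: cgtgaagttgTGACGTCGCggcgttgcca
Psmb6: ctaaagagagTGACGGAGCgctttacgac
Psmc6: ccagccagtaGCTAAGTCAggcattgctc
Psmd12: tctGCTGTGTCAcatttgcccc
Psmd9: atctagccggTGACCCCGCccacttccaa
Psme4: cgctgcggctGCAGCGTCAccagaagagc

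The match starts 47 bases before the start in Psmb5 (chr14:54618024-54618052), 9 bases before it in Psmb6 (chr11:70525338-70525366) and 7 bases before it in Psme4 (chr11:30771758-30771786). In Psmc6, Psmd12 and Psme4 the core lies on the opposite strand. The log2 fold changes of these 6 genes in 3xTg vehicle against WT vehicle were 0.14 for Psmb5, 0.25 for Psmb6, -0.14 for Psmc6, -0.14 for Psmd12, -0.061 for Psmd9 and 0.17 for Psme4. Without WT vehicle replicate 3, a library that stood apart in its proteasome values, they were -0.12, 0.029, -0.055, -0.042, -0.20 and 0.15 in the same order, so Psmb5 turned sign. The 6 genes did not share a direction in either fit, and none was called.

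The interferon-stimulated core, GAAA repeated after any 2 bases and searched on both strands, was found in 5 member windows (11.4%) and in 3.44% of all windows. The genes were Psmb3, Psmd4, Psmd9, Psme1 and Psmg4, and the matching bases are again in capitals.
Psmb3: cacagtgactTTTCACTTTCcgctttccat
Psmd4: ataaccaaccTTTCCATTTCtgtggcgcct
Psmd9: gggacagaatGAAAAAGAAAggaatgaaca
Psme1: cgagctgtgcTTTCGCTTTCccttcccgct
Psmg4: gcgcgcatctGAAAGTGAAAgagcgttccg

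In Psme1 (chr14:55578493-55578522) the core begins 9 bases after the RefSeq start, on the opposite strand. That start lies inside the gene as deposited. Of the inducible catalytic subunits, none of Psmb8, Psmb9 and Psmb10 held this interferon-stimulated core within its 300 bases. No match of one motif overlapped a match of another. The gamma-activated sequence TTCNNNGAA was found in 3 member windows, those of Psmb8, Psmd2 and Psmg1 (6.82%, against 8.30% of all windows). CCAAT, the NF-Y motif, was found in 15 (34.1%, against 37.4%).

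The proteasome genes were steady between libraries, with 1 exception. WT vehicle replicate 3 was the lowest of the 9 libraries for 28 of the 47 tested members (59.6%), while it was the lowest for 28.3% of all genes tested. Its median log2 ratio to the mean of the other 8 libraries was -0.33 over the members and -0.018 over all genes. In 17 members (36.2%) the ratio was under -0.5, against 16.6% of all genes, and no other library had more than 1 such member. This library also stood apart over all genes. In the other libraries, 3.98% to 8.85% of all genes had a ratio under -0.5 to the rest. The SD of the log2 ratio over all genes was 0.57 in WT vehicle replicate 3 and 0.31 to 0.45 in the others. Without it, the coefficient of variation of the members with at least 10 CPM had a median of 5.29%, against 7.25% for 9983 protein-coding genes at that level; with it, the medians were 9.57% and 10.3%.

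The shortfall differed by role. The genes named for it here were chosen after their values were seen. The median log2 ratio was -1.09 over the 3 tested inducible subunits, -0.61 over the constitutive beta ring and -0.43 over the alpha ring. It was -0.050 over the ATPases and -0.050 over the non-ATPase subunits, of which 3 lay under -0.5 and 4 above 0.25. The assembly chaperones had a median of -0.35, with 6 of 7 under 0, and the activators and inhibitor had a median of -0.12. Psmb4 is an example from the core: it had 58.6 CPM in WT vehicle replicate 3 and 103 to 115 CPM in the other 8. Psmd8, a lid subunit, went the other way, with 116 CPM there and 81.2 to 91.9 CPM in the other 8. Some genes went against most of their class, such as Psma6 at a ratio of 0.10 in the alpha ring and Psmb2 at 0.31 in the beta ring. All 3 tested inducible subunits lay under -0.5. In WT vehicle replicate 3, Psmb8 and Psmb9 had only 13 and 26 counts, and Psmb10 had 243. Psmd6, at -0.80, lay far under the non-ATPase median of -0.050.

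Of the receptors, deubiquitinases and assembly factors without a Psm name, 6 of 15 had a ratio under 0, with a median of 0.047. The median was -0.069 over 8 regulators of proteasome transcription (5 under 0) and -0.035 over 7 genes for ubiquitin and its activation (4 under 0). Over 15 genes of interferon response and antigen presentation it was -0.31 (11 under 0), near the -0.33 of the members. The genes of the first list named here were chosen after their values were seen. Sem1, a small cap subunit, had 12.8 CPM in WT vehicle replicate 3 and 23.3 to 25.9 CPM elsewhere. Pomp, the maturation factor of the core, had 29.0 CPM there and 50.8 to 58.4 CPM elsewhere. Adrm1, a ubiquitin receptor of the cap, went the other way, with 105 CPM there and 82.5 to 92.3 CPM elsewhere. So did Ubqln2, a shuttle factor that carries tagged proteins to the proteasome, with 356 CPM there and 210.2 to 254 CPM elsewhere. In that library the share of counts from the 13 mitochondrially encoded protein genes was 4.77%, compared with 2.09% to 2.61% elsewhere. Summed thalamic markers were 363 CPM, against 84.1 to 307 CPM elsewhere. It was also the highest library in summed neuronal markers (6059 CPM, against 4087 to 5721) and hippocampal markers (1196 CPM, against 590 to 1090). In microglial markers (274 CPM, against 304 to 362) and blood markers (33.4 CPM, against 44.9 to 177) it was the lowest. For the other region and cell type markers it lay within the range of the rest. Members with a main transcript under the median of 1430 bases had a median log2 ratio of -0.52 (23 genes), and the longer ones had -0.11 (24 genes). The relation to length was not particular to the members. The Spearman correlation of the ratio with main transcript length was 0.370 over the 47 members and 0.255 over 14643 protein-coding genes. The part of these measures in the low values was not tested. The summary of each comparison with WT vehicle is given with and without that library.

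**Figure D2:**
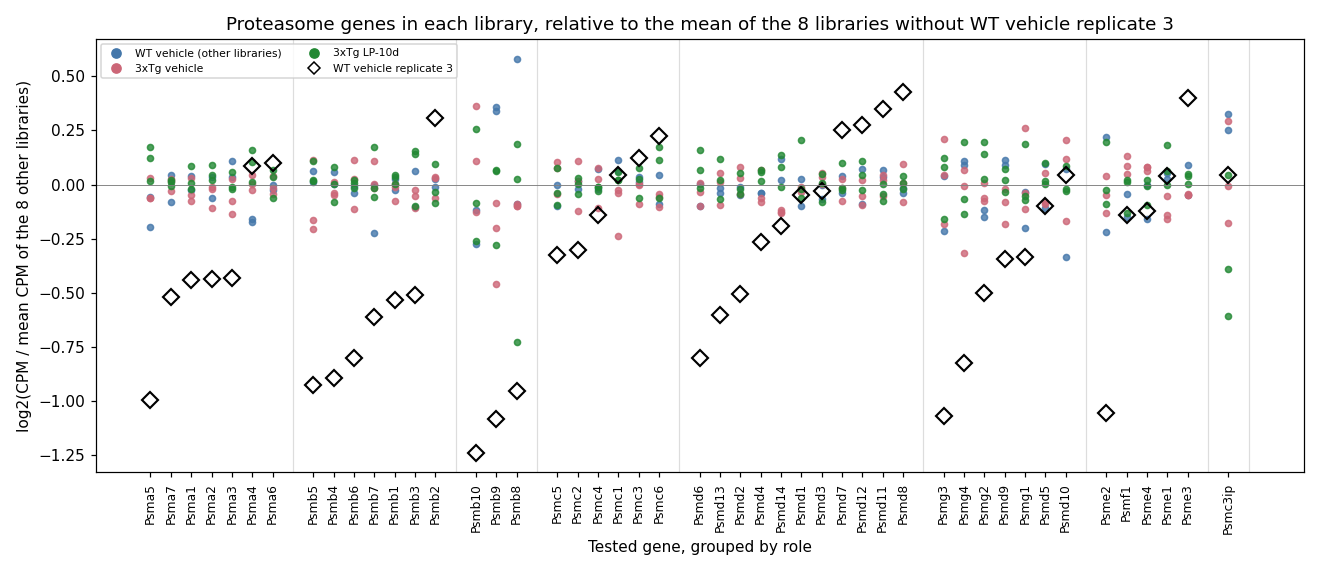
Each tested gene in each library as the log2 of its CPM over the mean CPM of the 8 libraries other than WT vehicle replicate 3; filled points are those 8 libraries, coloured by group, and open diamonds are WT vehicle replicate 3. The diamonds lie under -0.5 for 17 of 47 genes, 11 of them in the core, and above 0.25 for 6.

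The first comparison, 3xTg vehicle against WT vehicle, asked how the genotype relates to hippocampal transcripts. No proteasome gene was called by edgeR's quasi-likelihood test at an adjusted p of 0.05, where 0.00575% of the 17396 genes tested were called. DESeq2 and limma-voom called none of the members either, where DESeq2 called 2.02% of all genes. At an unadjusted p under 0.05, edgeR had 3 members, against 14.1% of all genes. Psmf1 and Psmb10 had higher values in 3xTg vehicle (7% of all genes) and Psmc1 had lower values (7.08%). The smallest adjusted p among the members was 0.324. The groups did not overlap for 7 of 47 members, against 17.4% of all genes, 4 of them higher (9.38%) and 3 lower (7.99%). Both shares of members were under the background.

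Estimates were small. The 95% interval of the fold change lay within 2-fold for 46 of 47 members, the exception being Psmb10, and within 1.5-fold for 34. The median absolute log2 fold change was 0.14 over the members and 0.17 over all genes. 30 members had a higher mean estimate in 3xTg vehicle and 17 a lower one, against 50.2% higher over all genes, and the median log2 fold change was 0.087, against 0.00066 over all genes. Without WT vehicle replicate 3 the median was -0.031, with 19 members higher and 28 lower, so the sign of the median rested on that library. No member was called without it, and 6 had an unadjusted p under 0.05, against 13.5% of all genes: Psma4 and Psmf1 higher, Psmb9, Psmc1, Psmd9 and Psmd14 lower.

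By role, 6 of 7 alpha subunits and 6 of 7 constitutive beta subunits had higher estimates in 3xTg vehicle, with medians of 0.094 and 0.14 on the log2 scale. The ATPases divided evenly, 3 higher and 3 lower, with a median of -0.029. The non-ATPase subunits had 6 higher and 5 lower, with a median of 0.018, and the chaperones had 5 higher and 2 lower, with a median of 0.12. Without WT vehicle replicate 3 the alpha subunits had 3 higher and 4 lower (median -0.0010), the constitutive beta subunits 2 higher and 5 lower (median -0.034), and the ATPases 1 higher and 5 lower (median -0.044). The non-ATPase subunits again had 6 higher and 5 lower (median 0.0070) and the chaperones had 4 higher and 3 lower (median 0.083). The direction of the core classes rested on that library, and no member of any class passed the adjusted threshold.

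**Figure D3:**
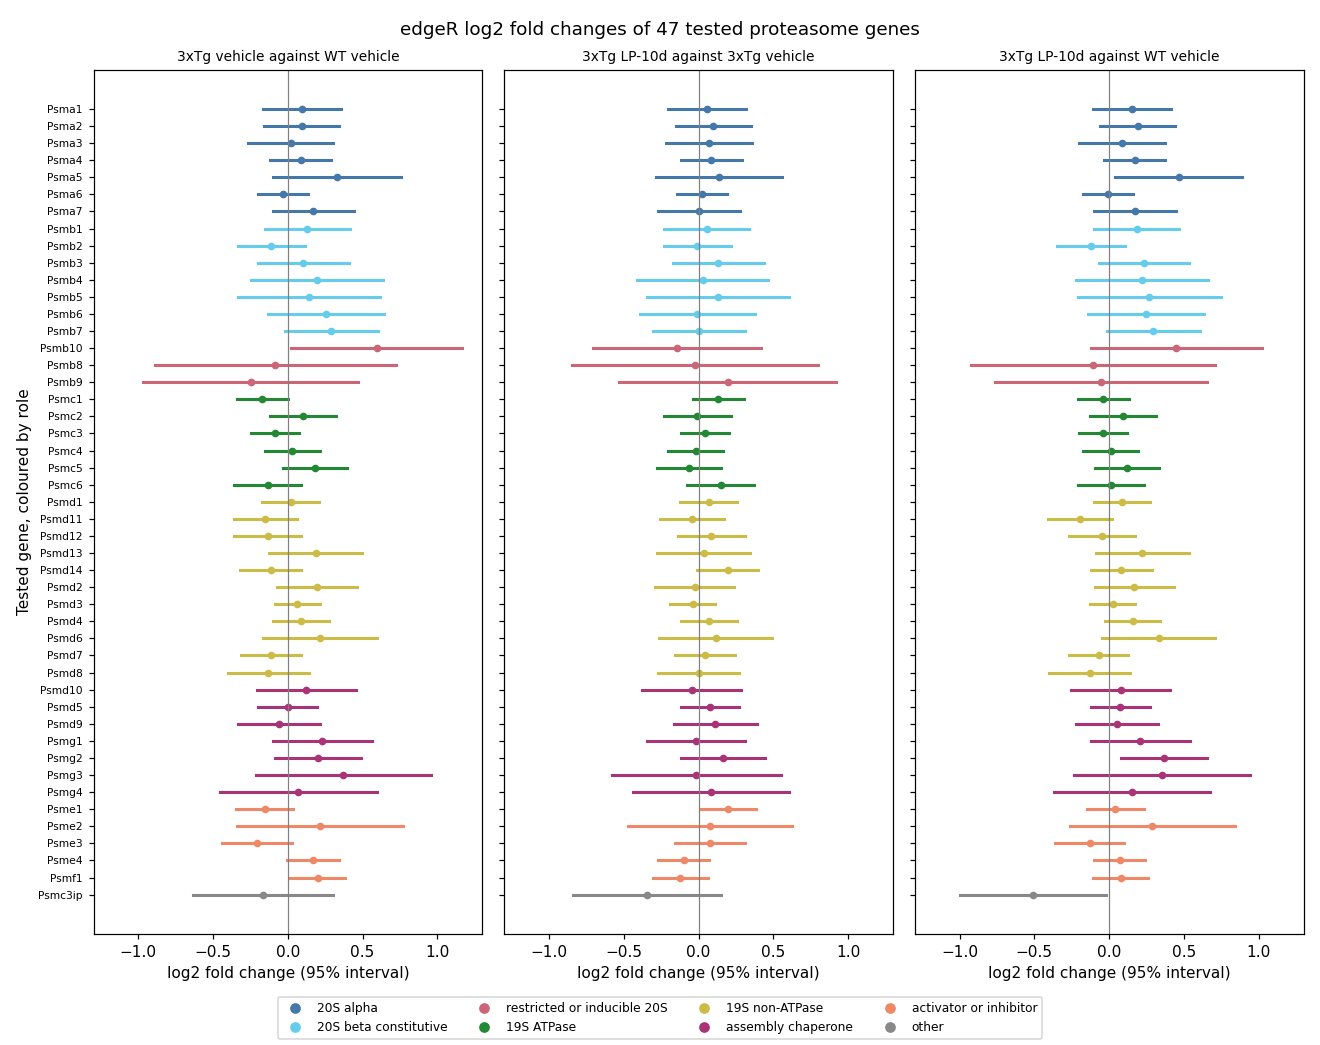
Log2 fold changes from edgeR with 95% intervals for the 47 tested genes in the 3 comparisons, coloured by role. Estimates lie between -0.51 and 0.59, no gene was called in any panel, and Psmb8 and Psmb9 have the widest intervals.

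The constitutive catalytic subunits were close between groups outside WT vehicle replicate 3. Psmb5, which carries the chymotrypsin-like activity, had 41.4, 40.0 and 20.9 CPM in WT vehicle, then 42.9, 34.5 and 35.5 CPM in 3xTg vehicle, and 40.1, 40.3 and 42.8 CPM in 3xTg LP-10d. Psmb6, the caspase-like subunit, had 66.4, 67.9 and 39.2 CPM, then 73.8, 63.2 and 69.5 CPM, then 67.5, 69.2 and 68.7 CPM in the same order of groups. Psmb7, the trypsin-like subunit, had 40.8, 35.0 and 26.8 CPM, then 40.9, 44.2 and 40.5 CPM, then 39.3, 40.4 and 46.2 CPM.
For each of these 3 genes WT vehicle replicate 3 was the lowest library and the ranges of all groups overlapped. The log2 fold change of Psmb7 in 3xTg vehicle against WT vehicle was 0.29 (standard error 0.14, edgeR adjusted p = 0.379), and without WT vehicle replicate 3 it was 0.14 (edgeR adjusted p = 0.562).

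The estimates of the inducible subunits in 3xTg vehicle against WT vehicle differed in sign, positive for Psmb10 and negative for Psmb9 and Psmb8, and none was called. Psmb10 had 26.4, 29.5 and 13.5 CPM in WT vehicle, then 34.4, 29.2 and 41.0 CPM in 3xTg vehicle, and 30.1, 26.6 and 38.1 CPM in 3xTg LP-10d. Its ranges overlapped, since 3xTg vehicle replicate 2 lay just under WT vehicle replicate 2. Its estimate in 3xTg vehicle was 1.51-fold (95% interval 1.02 to 2.24, edgeR adjusted p = 0.342). Without WT vehicle replicate 3 the log2 fold change went from 0.59 to 0.31 (edgeR adjusted p = 0.458).

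Psmb9 had 3.88, 3.93 and 1.45 CPM in WT vehicle, then 2.89, 2.67 and 2.23 CPM in 3xTg vehicle, and 3.22, 3.20 and 2.52 CPM in 3xTg LP-10d. WT vehicle held both its highest and its lowest values. The log2 fold change in 3xTg vehicle against WT vehicle was -0.25 (standard error 0.32, edgeR adjusted p = 0.738), and without WT vehicle replicate 3 it was -0.59 (standard error 0.19, edgeR adjusted p = 0.239).
Psmb8 had 1.31, 2.10 and 0.723 CPM in WT vehicle, then 1.32, 1.31 and 1.31 CPM in 3xTg vehicle, and 0.846, 1.42 and 1.59 CPM in 3xTg LP-10d. At 13 to 40 counts per library its interval in 3xTg vehicle against WT vehicle reached from 0.539-fold to 1.65-fold, and no direction could be read at this depth.

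**Figure D4:**
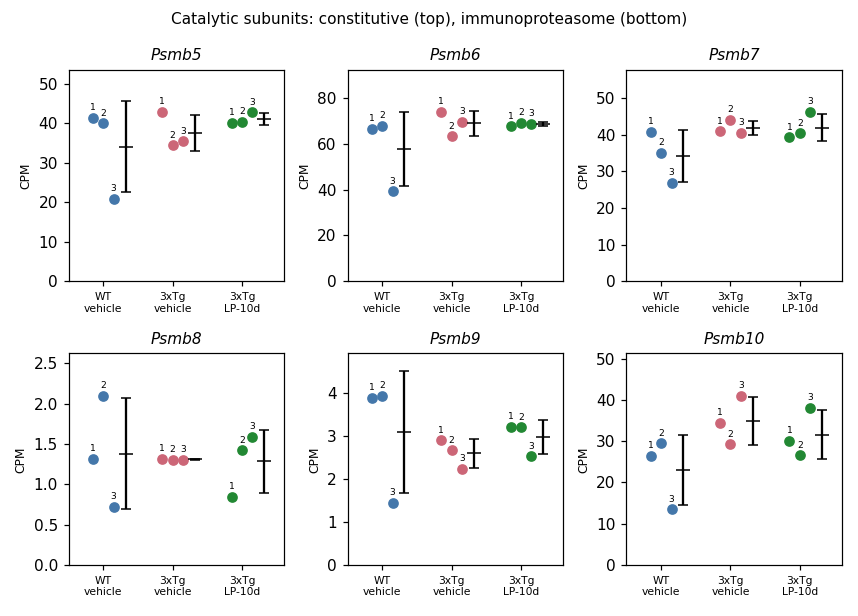
CPM of the constitutive catalytic subunits (top) and their inducible counterparts (bottom) in each library, numbered by replicate; bars are mean ± SD of 3 libraries. WT vehicle replicate 3 is the lowest library for all 6 genes, and the other libraries of the groups overlap except for Psmb9, where WT vehicle replicates 1 and 2 lie above the others.

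Of the activators and the inhibitor, Psmf1, Psme4 and Psme1 had small differences in 3xTg vehicle without overlap of the groups, and Psme2 and Psme3 overlapped with WT vehicle. Psmf1 had 31.7, 29.5 and 29.6 CPM in WT vehicle, then 34.7, 33.8 and 35.7 CPM in 3xTg vehicle, and 33.1, 29.8 and 32.9 CPM in 3xTg LP-10d. All 3xTg vehicle libraries lay above all WT vehicle libraries and above all 3xTg LP-10d libraries. The estimate against WT vehicle was 1.15-fold (95% interval 1.01 to 1.303, edgeR adjusted p = 0.324), and its log2 value of 0.20 was 0.18 without WT vehicle replicate 3.

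Psme4, whose product PA200 caps cores without using ubiquitin, gave the same arrangement. It had 41.0, 45.6 and 42.0 CPM in WT vehicle, then 48.4, 47.7 and 48.4 CPM in 3xTg vehicle, and 45.5, 42.9 and 46.5 CPM in 3xTg LP-10d. The estimate against WT vehicle was 1.12-fold (95% interval 0.998 to 1.26, edgeR adjusted p = 0.359), and its log2 value of 0.17 was 0.15 without WT vehicle replicate 3.

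Psme1 gave the opposite one. It had 28.3, 28.9 and 28.6 CPM in WT vehicle, then 26.8, 25.2 and 24.9 CPM in 3xTg vehicle, and 31.5, 29.0 and 27.8 CPM in 3xTg LP-10d. All 3xTg vehicle libraries lay below those of both other groups, which overlapped each other. The log2 fold change was -0.16 against WT vehicle (standard error 0.085, edgeR adjusted p = 0.428), and also -0.16 without WT vehicle replicate 3. Its partner Psme2 did not follow, with 11.7, 15.9 and 6.56 CPM, then 13.2, 12.4 and 13.99 CPM, then 12.8, 15.7 and 13.4 CPM, and overlapping groups.
The level of Psme2 was 61.6% of that of Psme1 by FPKM in the median library and 28.7% in WT vehicle replicate 3. Psme3 had 110, 99.9 and 136 CPM in WT vehicle, then 99.7, 100.01 and 99.9 CPM in 3xTg vehicle, and 106, 107 and 103 CPM in 3xTg LP-10d, and here WT vehicle replicate 3 was the highest library.

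Psmc1, an ATPase of the cap base, had 108, 104 and 103 CPM in WT vehicle, then 84.6, 98.0 and 97.03 CPM in 3xTg vehicle, and 101, 101 and 104 CPM in 3xTg LP-10d. All 3xTg vehicle libraries were lower than those of the other groups, replicate 1 most. The estimate against WT vehicle was 0.888-fold (95% interval 0.789 to 1.00, edgeR adjusted p = 0.354), and its log2 value of -0.17 was -0.19 without WT vehicle replicate 3. Psmc3, Psmd3 and the chaperone Psmg2 were the other members without overlap in this comparison; Psmc3 is named because of that, after its values were seen.

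**Figure D5:**
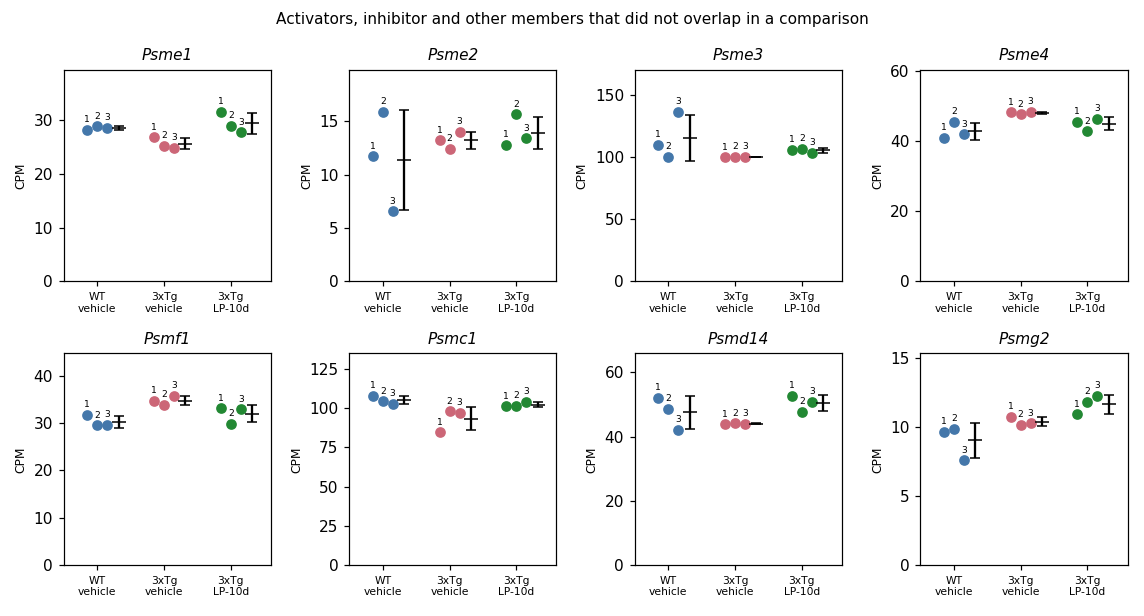
CPM of the activators Psme1 to Psme4, the inhibitor Psmf1, and Psmc1, Psmd14 and Psmg2 in each library, numbered by replicate; bars are mean ± SD of 3 libraries. The 3xTg vehicle libraries lie above both other groups for Psme4 and Psmf1 and below both for Psme1 and Psmc1.

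The second comparison, 3xTg LP-10d against 3xTg vehicle, asked what treatment with the compound changed in the transgenic mice. edgeR called no member and no gene, a background of 0%, and its smallest adjusted p among the members was 1.00. At an unadjusted p under 0.05 it had 1 member, Psme1, against 2.9% of all genes, and it was higher with LP-10d (0.948% of all genes). limma-voom likewise had 1 member, against 2.59%, and DESeq2 had 0, against 2.45%. The groups did not overlap for 8 of 47 members, against 11.6% of all genes: 6 were higher with LP-10d (Psma2, Psmc1, Psmd14, Psme1, Psme3 and Psmg2), against 5.82% of all genes, and 2 were lower (Psme4 and Psmf1), against 5.81%. Here the members' share was above the background in the higher direction, at fold changes of 1.05 to 1.15 that the test did not call.

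The estimates were the smallest of the 3 comparisons, over all genes as over the members. The median absolute log2 fold change of the members was 0.069, against 0.14 and 0.13 in the comparisons with WT vehicle. Over all genes it was 0.093, against 0.17 and 0.15. The 95% interval lay within 2-fold for all 47 members tested and within 1.5-fold for 40. The median log2 fold change was 0.045, against -0.00033 over all genes, with 31 members higher and 16 lower, against 49.9% higher over all genes. All 7 alpha subunits had higher estimates with LP-10d, between 0.0044 for Psma7 and 0.14 for Psma5, and 0 of them had an unadjusted p under 0.05. Of the constitutive beta subunits 5 of 7 were higher, of the ATPases 3 of 6, of the non-ATPase subunits 8 of 11 and of the chaperones 4 of 7. This comparison does not use WT vehicle for its means, and without WT vehicle replicate 3 the median was 0.050. That library still enters the shared estimate of spread. Without it, 2 members, Psmd14 and Psme1, had an unadjusted edgeR p under 0.05, both higher with LP-10d, against 5.21% of all genes. No member was called in that fit.

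Psme1 was 1.15-fold higher in the LP-10d estimate (95% interval 1.01 to 1.31, edgeR adjusted p = 1.00). Psmd14, the cap's deubiquitinase that removes ubiquitin chains as the substrate enters, had 43.8, 44.2 and 43.9 CPM in 3xTg vehicle, 52.7, 47.7 and 50.8 CPM in 3xTg LP-10d, and 52.0, 48.7 and 42.0 CPM in WT vehicle. All LP-10d libraries lay above all 3xTg vehicle libraries, which were nearly equal. Its estimate was 1.15-fold (95% interval 0.995 to 1.32, edgeR adjusted p = 1.00).

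This comparison shares the 3xTg vehicle libraries with the first, so a value that is low or high there enters both with opposite signs. Side by side, the log2 fold changes for 3xTg vehicle against WT vehicle and for LP-10d against 3xTg vehicle were -0.17 and 0.13 for Psmc1, -0.16 and 0.20 for Psme1, 0.17 and -0.098 for Psme4, and 0.20 and -0.12 for Psmf1. Psmg2, a chaperone of alpha-ring assembly, had the same sign in each, 0.20 and 0.17.

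The catalytic subunits gave nothing past the test with LP-10d. The log2 fold changes were 0.13 for Psmb5, -0.0077 for Psmb6, 0.0040 for Psmb7, -0.14 for Psmb10, 0.20 for Psmb9 and -0.024 for Psmb8. Their 95% intervals reached from -0.85 to 0.92 on the log2 scale, both bounds being those of the low-count genes Psmb8 and Psmb9.

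The third comparison, 3xTg LP-10d against WT vehicle, set the treated mice beside the wild type. edgeR called no member and no gene, a background of 0%, and the smallest adjusted p among the members was 0.566. DESeq2 called 0 members at its adjusted threshold, where it called 0.264% of all genes. At an unadjusted p under 0.05, edgeR had 3 members, against 8.75% of all genes. Psmg2 and Psma5 were higher with LP-10d (4.08% of all genes) and Psmc3ip was lower (4.67%). limma-voom had the same number, against 8.47%. The groups did not overlap for 5 of 47 members, against 14.4% of all genes, 3 of them higher (7.49%) and 2 lower (6.89%). The median log2 fold change was 0.087, with 35 members higher and 12 lower, against 49.5% higher over all genes, and without WT vehicle replicate 3 it was 0.027, with 34 higher and 13 lower. The comparison shares libraries with each of the others.

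Psmg2 had 9.65, 9.85 and 7.56 CPM in WT vehicle, then 10.7, 10.2 and 10.2 CPM in 3xTg vehicle, and 10.9, 11.8 and 12.2 CPM in 3xTg LP-10d. The 3 groups did not overlap, and each 3xTg group lay above WT vehicle. The estimate with LP-10d against WT vehicle was 1.29-fold (95% interval 1.06 to 1.57, edgeR adjusted p = 0.566). Without WT vehicle replicate 3 its log2 value went from 0.37 to 0.25 (edgeR adjusted p = 0.601).

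Psma5, an alpha subunit, had 35.0, 38.5 and 20.1 CPM in WT vehicle, then 38.3, 38.4 and 40.8 CPM in 3xTg vehicle, and 43.6, 40.4 and 45.1 CPM in 3xTg LP-10d. All LP-10d libraries lay above all WT vehicle libraries. The log2 fold change was 0.47 (standard error 0.19, edgeR adjusted p = 0.569) and was 0.23 without WT vehicle replicate 3 (edgeR adjusted p = 0.583), since that library alone lay far down. Psmc3ip had 3.08, 3.25 and 2.67 CPM in WT vehicle, then 2.58, 3.18 and 2.29 CPM in 3xTg vehicle, and 1.98, 2.67 and 1.70 CPM in 3xTg LP-10d. It had 31 to 62 counts per library, and the overlap with Mlx given above bears on them.

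Other cap and core subunits with the smallest p-values in a direction varied as little. Psmd4, which binds ubiquitin chains, had 123, 123 and 105 CPM in WT vehicle, then 132, 119 and 121 CPM in 3xTg vehicle and 131, 127 and 132 CPM in 3xTg LP-10d. Psmd11, of the lid, had 49.4, 50.5 and 61.5 CPM in WT vehicle, then 49.7, 48.9 and 46.6 CPM in 3xTg vehicle and 48.3, 45.7 and 46.8 CPM in 3xTg LP-10d. With LP-10d, Psmd4 lay above and Psmd11 below all WT vehicle libraries, and for Psmd11 WT vehicle replicate 3 was the highest library. Psmc5 had 119, 128 and 102 CPM in WT vehicle, then 124, 137 and 135 CPM in 3xTg vehicle and 125, 119.9 and 135 CPM in 3xTg LP-10d. Psmc6, the lowest of the ATPases, had 43.6, 39.8 and 49.4 CPM in WT vehicle, then 39.4, 40.98 and 40.6 CPM in 3xTg vehicle and 45.8, 40.5 and 47.8 CPM in 3xTg LP-10d. Psmd3, a lid subunit, had 136, 143 and 140.1 CPM in WT vehicle, then 146, 143 and 148 CPM in 3xTg vehicle and 144, 135 and 148 CPM in 3xTg LP-10d. For Psmd3 all 3xTg vehicle libraries lay above those of WT vehicle, by less than the spread within either 3xTg group.

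The remaining such subunits were those in which WT vehicle replicate 3 stood out. Psmd6 had 50.7, 47.3 and 29.03 CPM in WT vehicle, then 47.2, 49.4 and 50.9 CPM in 3xTg vehicle and 53.1, 50.1 and 56.5 CPM in 3xTg LP-10d. Psmd8 had 83.6, 84.9 and 116 CPM in WT vehicle, then 91.9, 81.2 and 86.4 CPM in 3xTg vehicle and 86.5, 84.6 and 88.4 CPM in 3xTg LP-10d. Psmd12 had 45.8, 40.98 and 52.7 CPM in WT vehicle, then 40.8, 44.2 and 41.98 CPM in 3xTg vehicle and 44.98, 42.8 and 47.04 CPM in 3xTg LP-10d. In Psmd6 that library was the lowest of all and in Psmd8 and Psmd12 the highest. Psmb2, a core beta subunit without catalytic activity, had 42.3, 41.3 and 51.4 CPM in WT vehicle, then 42.6, 39.8 and 42.5 CPM in 3xTg vehicle and 40.6, 39.2 and 44.3 CPM in 3xTg LP-10d, and there too WT vehicle replicate 3 was the highest.

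Genes around the proteasome were read from 4 lists. Of 16 receptors, deubiquitinases and assembly factors without a Psm name, 15 were tested and Paaf1 was not analysed here; none was called in any comparison. In 3xTg vehicle against WT vehicle, 9 had higher and 6 lower estimates, with a median log2 fold change of 0.036. Ecpas, a scaffold that tethers the cap to the core, had the smallest p, at 73.0, 77.8 and 71.6 CPM for the WT vehicle libraries and 79.4, 87.1 and 83.6 CPM for 3xTg vehicle (log2 fold change 0.17, edgeR adjusted p = 0.351, and 0.14 without WT vehicle replicate 3).

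Of 8 regulators of proteasome transcription, none was called. Nfe2l1, the factor that is known to raise proteasome genes when the proteasome is inhibited, had 409 ± 15 CPM (SD, n = 3) in WT vehicle, 437 ± 5.6 CPM in 3xTg vehicle and 417 ± 7.9 CPM in 3xTg LP-10d. Nfe2l2, the oxidative stress factor, had 17.4, 21.6 and 28.8 CPM in WT vehicle, then 12.9, 12.9 and 12.03 CPM in 3xTg vehicle, and 15.1, 16.2 and 15.3 CPM in 3xTg LP-10d. The 3 groups did not overlap for Nfe2l2, with WT vehicle highest and 3xTg vehicle lowest. Its log2 fold change in 3xTg vehicle was -0.84 (standard error 0.16, edgeR adjusted p = 0.0953), and without WT vehicle replicate 3, its highest library, it was -0.64 (edgeR adjusted p = 0.124).

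Of 7 genes for ubiquitin and its activation, none was called. Uchl1, a neuronal ubiquitin hydrolase, had 294 ± 28 CPM in WT vehicle, 350 ± 11 CPM in 3xTg vehicle and 338 ± 5.5 CPM in 3xTg LP-10d (log2 fold change 0.25 in 3xTg vehicle against WT vehicle, edgeR adjusted p = 0.251, and 0.27 without WT vehicle replicate 3).

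Of 15 genes of interferon response and antigen presentation, none was called. All 15 had lower estimates in 3xTg vehicle than in WT vehicle, with a median log2 fold change of -0.43, and 4 had an unadjusted edgeR p under 0.05, a rule that 14.1% of all genes met. The median was -0.64 without WT vehicle replicate 3, again with all 15 lower and with 12 at an unadjusted p under 0.05, against 13.5% of all genes. B2m, the light chain of class I molecules, had 74.5 ± 17 CPM in WT vehicle, 52.9 ± 4.6 CPM in 3xTg vehicle and 52.8 ± 3.7 CPM in 3xTg LP-10d (log2 fold change -0.49 in 3xTg vehicle, edgeR adjusted p = 0.218, and -0.32 without WT vehicle replicate 3). That library was the highest for B2m, at 92.3 CPM against 48.9 to 71.6 CPM elsewhere. B2m was unlike most of the list in this. The log2 ratio of that library to the other 8 had a median of -0.31 over the list, with 11 of 15 genes under 0. With LP-10d against 3xTg vehicle 8 were higher and 7 lower, with a median of 0.050. With LP-10d against WT vehicle all 15 were again lower, with a median of -0.29 and 3 at an unadjusted p under 0.05, against 8.75% of all genes. Without WT vehicle replicate 3 the median was -0.47, with 11 at that level, against 7.73%. The comparisons with WT vehicle share its libraries. Summed microglial markers ran from 274 to 355 CPM over WT vehicle and from 324 to 362 CPM over 3xTg vehicle, with 7 of 7 genes detected, and their part in these values was not tested.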

How the data were processed

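RNA-seq counts of 9 libraries were analysed. The authors deposited raw gene counts for 55471 genes and FPKM values with gene names and biotypes for the 33175 genes with a count. Per the submitters' processing notes the build was mm10. The sources used here name no aligner or counter. FPKM lengths matched the union of GENCODE M21 exons for 98.8% of genes and all 49 members. Members were found by symbol and biotype, which left out the pseudogene Psmb6-ps2. The counts went into edgeR 4.0.16 (R 4.3.3): filterByExpr (17396 genes), TMM scaling, 1 fit of all 9 libraries, the quasi-likelihood test (non-legacy), Benjamini-Hochberg adjustment over all genes tested and a threshold of 0.05. The fit was tested on simulated counts. DESeq2 1.42.0 and limma 3.58.1 (voom, and trend on log2 FPKM plus 0.1 or 1) were alternatives. With 3 libraries a group, the smallest p of an exact permutation test is 0.1, so none is given.

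Members, lists and tests were chosen with earlier results of these data known. Named in every library were the catalytic subunits, the activators and the inhibitor, and by value up to 5 members per direction and comparison with the smallest p; the highest and lowest member of each role class were given by mean level, and up to 3 genes per list and comparison were named. Names outside this rule are said to be chosen after their values were seen. No 2 libraries of a group agreed within sampling noise. Deviations from the group means correlated at 0.173, 0.104 and 0.375 over genes between same-numbered libraries of 3xTg LP-10d and 3xTg vehicle. Differently numbered libraries of these groups had -0.298 to 0.18, so whether the numbers pair them is not settled. A replicate block changed no call.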

Additional observations from a re-analysis of the deposited data

How the results depend on the processing

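No proteasome gene was called in any comparison under any alternative run: upper-quartile or DESeq2 scaling, DESeq2, limma-voom, the legacy test, no filter or a mean CPM of 1, only the 6 libraries compared, FPKM with either pseudocount, a replicate block, each library left out in turn, and WT vehicle replicate 3 with 3xTg vehicle replicate 2 left out. The replicate block, over all 9 libraries, left 0 members called in each comparison. Its smallest edgeR adjusted p was 0.356, 1.00 and 0.570 in the order of the report. Same-numbered libraries of WT vehicle and the 3xTg groups had correlations of -0.178 to 0.16. Differently numbered ones reached 0.386, so the WT vehicle numbers gave no sign of pairing. The fit of the 6 treated and untreated 3xTg libraries with the replicate block was chosen after seeing the data and also left 0 called.

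With each library left out in turn, the median log2 fold change of the members ran from -0.031 (without WT vehicle replicate 3) to 0.13 in 3xTg vehicle against WT vehicle, from 0.024 to 0.062 in LP-10d against 3xTg vehicle, and from 0.027 to 0.15 in LP-10d against WT vehicle. Over all 47 tested members, leaving out WT vehicle replicate 3 turned the sign of 13 estimates in 3xTg vehicle against WT vehicle, 0 in LP-10d against 3xTg vehicle and 11 in LP-10d against WT vehicle, and called none of them. The other alternatives are given for the members chosen by the naming rule for each comparison. In 3xTg vehicle against WT vehicle, Psmb8 was 0.043 with limma-voom and 0.051 with FPKM plus 0.1, and Psmb5 and Psme2 were -0.061 and -0.029 with both libraries left out; with each library left out the ranges were -0.12 to 0.30 for Psmb5, -0.40 to 0.36 for Psmb8 and -0.072 to 0.53 for Psme2. In LP-10d against 3xTg vehicle, Psmb6 was 0.00194 with no filter and Psmb7 was -0.00120 with 6 libraries and the replicate block; the ranges were -0.065 to 0.052 for Psmb6, -0.071 to 0.050 for Psmb7, -0.21 to 0.20 for Psmb8 and -0.012 to 0.14 for Psme2. In LP-10d against WT vehicle, Psmb9 was 0.070 with limma-voom, 0.091 with FPKM plus 0.1 and 0.015 with FPKM plus 1, Psmb8 was 0.00344 with FPKM plus 0.1, and Psmd8 and Psme3 were 0.037 and 0.0053 with both libraries left out; the ranges were -0.42 to 0.34 for Psmb8, -0.39 to 0.16 for Psmb9, -0.21 to 0.037 for Psmd8, -0.010 to 0.083 for Psme1 and -0.22 to 0.0053 for Psme3. The cause of these changes was not tested. Psmb8 had the widest 95% intervals in each comparison, at 13 to 40 counts per library.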
